A study of Mus musculus with 24 samples.

Results

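The 28 genes of cholesterol synthesis and of its SREBP2 control described here were chosen by name, as the rows of the 24 liver expression tables whose gene symbol equals one of the 28. Each was found as 1 entry in every table, with 0 failed estimates, among 24339 genes in all. They comprise 19 enzymes (6 of the mevalonate steps, 4 of the prenyl and squalene steps and 9 of the sterol steps), 4 genes of the SREBP2 control and 5 genes that move, absorb or esterify cholesterol. All 28 passed the filter on low values, which asked for at least 1 FPKM (fragments per kilobase of transcript, normalised to the size of the library) in at least 3 of the 24 libraries and left 12282 genes. Npc1l1 passed it only through wild type pups given TCPOBOP, the group where it was high, so its values are given as a description, with no p from that fit, and counts that hold it are also given for the other 27.

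Polyadenylated RNA of whole mouse liver was sequenced in 8 groups of 3 libraries, all labelled as strain C57BL/6. The groups were wild type mice at postnatal day 5 given corn oil or TCPOBOP, wild type mice at day 60 given corn oil or TCPOBOP, hCAR-TG mice at day 5 given corn oil or CITCO, and hCAR-TG mice at day 60 given corn oil or CITCO. hCAR-TG mice carry human CAR as a knock-in; CAR, the constitutive androstane receptor encoded by Nr1i3, is a nuclear receptor that switches on drug-processing genes in hepatocytes, TCPOBOP is an agonist of mouse CAR and CITCO an agonist of human CAR. Receptor and ligand always differ together, so their parts in any difference between the genotypes' responses cannot be told apart. The labels used here give neither dose nor time after dosing, and do not say that replicates are separate animals, so p-values measure only the spread between these samples, which may be technical.

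Cholesterol is built from acetyl-CoA through mevalonate, isoprenoid diphosphates, squalene and lanosterol, and the liver is its main site of synthesis. The transcription factor SREBP2, the product of Srebf2, is held in the endoplasmic reticulum by the escort protein Scap and the retention proteins Insig1 and Insig2 while sterols are plentiful. When sterols fall it is carried to the Golgi, cut, and enters the nucleus, where it raises transcription of the synthesis enzymes and of Insig1 itself.

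Promoter sequences are shown first, as background. Whether the matches bear on the changes of the members was not tested. RefSeq windows (build GRCm38.p6, 250 bases before to 50 after a start site) were matched by symbol to 22 of the 28 genes, in 28 windows. Both strands were searched for the sterol element TCACNCCAC, its core CACNCCAC (which lies within it), the NF-Y box CCAAT, the Sp1 box GGGCGG and the E-box CACGTG. The 200 bases before the start are printed for 4 members whose values are taken up again further on, 5′ to 3′ on the gene's strand, with matches to the sterol element core and the NF-Y box on either strand in capitals.
Hmgcs1 (chr13:119690151-119690350, + strand): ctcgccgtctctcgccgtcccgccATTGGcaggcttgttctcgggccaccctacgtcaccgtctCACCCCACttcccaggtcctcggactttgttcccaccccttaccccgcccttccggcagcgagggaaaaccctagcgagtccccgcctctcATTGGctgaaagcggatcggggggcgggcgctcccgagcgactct
Insig1 (chr5:28071212-28071411, + strand): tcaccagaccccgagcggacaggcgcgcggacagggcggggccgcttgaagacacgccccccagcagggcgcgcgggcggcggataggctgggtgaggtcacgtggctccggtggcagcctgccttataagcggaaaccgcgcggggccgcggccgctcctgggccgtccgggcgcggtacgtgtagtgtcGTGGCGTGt
Acat2 (chr17:12960726-12960925, - strand): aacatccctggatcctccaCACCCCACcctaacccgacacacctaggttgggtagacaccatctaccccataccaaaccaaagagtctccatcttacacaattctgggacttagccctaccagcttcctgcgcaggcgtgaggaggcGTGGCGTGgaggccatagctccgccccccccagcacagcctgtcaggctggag
Mvd (chr8:122443423-122443622, - strand): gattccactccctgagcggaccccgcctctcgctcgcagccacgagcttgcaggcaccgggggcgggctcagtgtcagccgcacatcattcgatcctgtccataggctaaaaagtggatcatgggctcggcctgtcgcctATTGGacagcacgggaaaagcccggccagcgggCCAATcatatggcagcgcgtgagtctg
Hmgcs1 alone among the member windows held the full sterol element, 1 of 28 windows (3.57%) against 1.24% of all 32851 windows. The core was found for Hmgcs1, Insig1 and Acat2, in 3 of 28 windows (10.7%) against 6.24%. The NF-Y box was found in 20 of 28 windows (71.4%) against 37.4%, and the Sp1 box in 22 of 28 (78.6%) against 35.7%. The E-box was found in 6 of 28 windows (21.4%) against 7.15%. A match is a run of letters, not a shown binding site.

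The libraries were checked before the genes were read. FPKM totals were 446595 to 502458 per library and depths relative to each other 0.861 to 1.10; the absolute depth is unknown. Albumin was at 10579 to 51186 FPKM (Alb, the defining hepatocyte marker). Cyp2b10, the P450 gene used as a readout of CAR, rose from a mean of 4.26 to 1694 FPKM in wild type pups and from 12.9 to 2596 in wild type adults, and from 2.81 to 435 and from 225 to 1226 FPKM in hCAR-TG pups and adults. The mouse gene Nr1i3 was at 58.0 ± 12.8 and 68.2 ± 12.9 FPKM (SD, n = 3) in wild type pups and adults under corn oil, and at 22.2 ± 4.78 and 8.70 ± 1.56 in hCAR-TG pups and adults. Markers of pancreatic acinar cells summed to 243, 340 and 317 FPKM in 3 day 5 libraries (wild type corn oil replicate 2, wild type TCPOBOP replicate 2 and hCAR-TG CITCO replicate 1) and to at most 35.4 FPKM in the other libraries, so counts at day 5 are also given without these 3. The liver is measured whole, so fewer cells of a type and less RNA per cell cannot be told apart.

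Under corn oil in wild type adults the members spanned a wide range of levels, and FPKM, being per length, allows genes to be set side by side. Sc5d, the sterol C5 desaturase, stood at 149 ± 20.6 FPKM (SD, n = 3), Fdps, the farnesyl diphosphate synthase, at 128 ± 35.0, Insig1 at 112 ± 26.3, Insig2 at 100.2 ± 11.2 and Ebp, the sterol isomerase, at 93.8 ± 2.32. Every Sc5d library lay above every library of Insig1, Insig2 and Ebp. The ranges of the other 4 overlapped one another, and that of Fdps also overlapped Sc5d, so the order within those is not settled. At the other end Lss, the lanosterol synthase, was at 8.24 ± 2.16 FPKM, Ggps1, which makes geranylgeranyl diphosphate for protein prenylation, at 2.66 ± 0.185, and Npc1l1 was listed at 0 in all 3 libraries.

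The mean log2(FPKM + 1) of the 19 enzymes summarises each library. In wild type pups it was 4.29 to 4.76 under corn oil and 4.97 to 5.05 under TCPOBOP, and in wild type adults 4.67 to 5.25 and 5.39 to 5.59. In both ages every TCPOBOP library lay above every corn oil library. In hCAR-TG pups the ranges overlapped, 4.34 to 4.61 under corn oil and 4.47 to 4.68 under CITCO. In hCAR-TG adults the order was turned around, with 5.12 to 5.36 under corn oil and 4.68 to 5.07 under CITCO, and the CITCO libraries lay within the range of wild type adults under corn oil. The libraries of a group tended to differ for many enzymes at once: wild type day 60 corn oil replicate 2 was the lowest of its group for 15 of 19 enzymes and replicate 3 the highest for 17, hCAR-TG day 60 CITCO replicate 2 the highest for 17, hCAR-TG day 60 corn oil replicate 3 the lowest for 17, and wild type day 5 corn oil replicate 3 the lowest for 15.

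**Figure D1:**
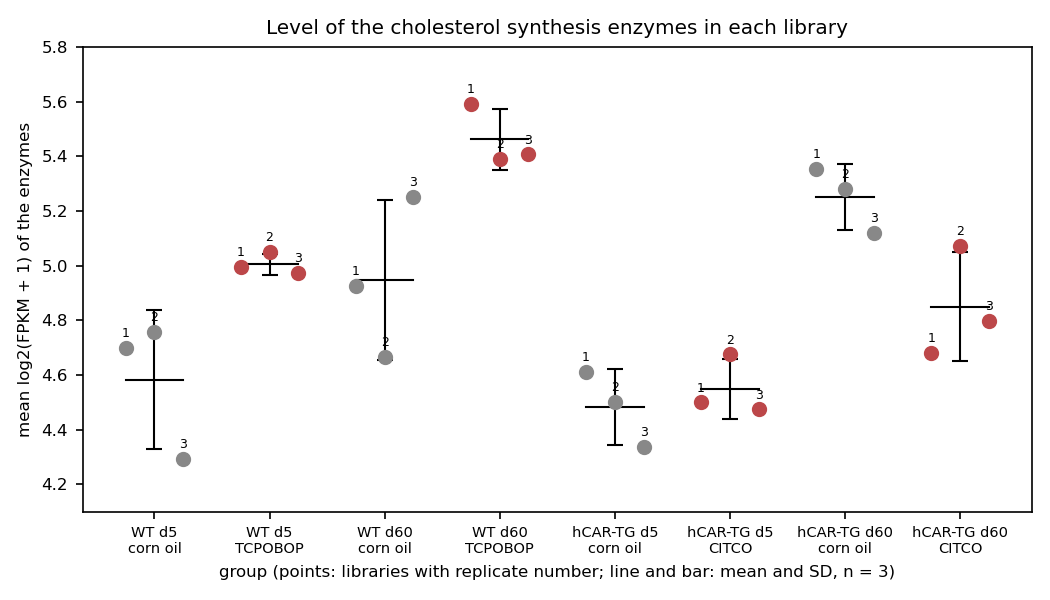
Mean log2(FPKM + 1) of the 19 cholesterol synthesis enzymes (vertical axis) in each of the 24 libraries by group (horizontal axis); points are libraries with their replicate number, the line and bar the mean and SD of 3. TCPOBOP libraries lie above the corn oil libraries of their age, while at day 60 the CITCO libraries (4.68 to 5.07) lie below the hCAR-TG corn oil libraries (5.12 to 5.36).

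In wild type pups TCPOBOP raised 15 of the 28 genes and lowered 0, at a limma adjusted p under 0.05 over all 12282 genes, beside 24.6% of all tested genes called higher and 11.3% called lower. The 15 were 8 of the 19 enzymes, Insig1 and Insig2, and all 5 genes of cholesterol handling; without Npc1l1 they were 14 of 27. Rescaling by the median of ratios left 2 of the 4 handling genes then tested, Npc1 and Soat2, called higher (Npc2 and Stard4 had limma adjusted p of 0.0574 and 0.0766), and Npc1l1 did not pass the filter. The median log2 change, the difference of group means of log2(FPKM + 1), was 0.39 over the members and 0.04 over all tested genes. Without the 3 libraries with acinar transcripts 13 members were higher and 0 lower. The number closing the read file name, whose meaning the labels do not give, changed together with the treatment in these pups. It could not be fitted as a factor here, so the parts of the treatment and of this number cannot be told apart. In the same pups the 5 hepatocyte markers summed to 68861 to 70414 FPKM under corn oil and 53889 to 58491 under TCPOBOP, and the Kupffer markers to 301 to 328 and 376 to 495. The hepatocyte markers were split, with 2 of the 5 called higher and 2 lower. Of 5 markers each, 3 of Kupffer cells and 3 erythroid ones were called higher and 3 of stellate cells lower. Their part in the changes of the members was not tested.

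Insig1 (chromosome 5, 28071412 to 28078662, mm10) was at 29.9, 30.9 and 22.6 FPKM under corn oil and 62.5, 67.3 and 63.8 under TCPOBOP in replicates 1 to 3. Every treated library was above every control, and the log2 change was 1.20 ± 0.16 (SE; adjusted p = 6.12e-06, limma). Insig2, its paralogue on chromosome 1 (121304353 to 121332589), went from 49.4, 36.1 and 43.9 to 73.1, 58.8 and 75.7 FPKM, again without overlap, a log2 change of 0.67 ± 0.12 (SE; adjusted p = 0.000206, limma). The other control genes were not called: Srebf2 had a log2 change of 0.05 ± 0.09 and Scap of 0.17 ± 0.11 (SE; adjusted p = 0.715 and 0.252 by limma).

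Among the enzymes, Tm7sf2 (chromosome 19, 6062821 to 6067850), a sterol C14 reductase, had the lowest adjusted p. It was at 41.5, 43.4 and 42.1 FPKM under corn oil and 80.8, 101 and 80.4 under TCPOBOP, with no overlap, and its log2 change was 1.02 ± 0.09 (SE; adjusted p = 2.63e-08, limma). Sqle (chromosome 15, 59315092 to 59331193), squalene epoxidase, the first oxygen-using step, went from 19.6, 22.5 and 12.4 to 37.7, 38.3 and 38.6 FPKM, a log2 change of 1.07 ± 0.20 (SE; adjusted p = 0.000348, limma). The treated Sqle libraries lay close together, while corn oil replicate 3 was the lowest of the controls. Fdps, Cyp51 (lanosterol demethylase), Msmo1 (methylsterol oxidase), Pmvk (phosphomevalonate kinase), Sc5d and Ebp also rose, by 0.36 to 0.70 on the log2 scale. Hmgcs1, the HMG-CoA synthase at the entry to mevalonate, did not pass the test, with 114, 101 and 73.5 FPKM under corn oil, 94.9, 79.0 and 95.3 under TCPOBOP and a log2 change of -0.08 ± 0.24 (SE; adjusted p = 0.834, limma). Ggps1, not called, was the 1 member whose TCPOBOP libraries all lay below corn oil; 20 members lay wholly above, beside 30.0% of tested genes wholly above and 17.5% wholly below.

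Of the handling genes, Npc1l1 (chromosome 11, 6211011 to 6230245), the transporter for dietary and biliary cholesterol, is best known from the gut and, in mice, is nearly silent in adult liver. It was at 0.00528, 0.0186 and 0 FPKM in pups under corn oil and at 1.04, 1.26 and 1.36 under TCPOBOP, a log2 change of 1.14 ± 0.05 (SE) that understates the FPKM ratio because 1 is added before the log. Every treated library was above every control, and in the fit with no filter on low values the limma adjusted p was 1.08e-14. In the other 6 groups no library exceeded 0.113 FPKM. Markers of intestine summed to 59.1 to 77.4 FPKM under corn oil and 83.4 to 123 under TCPOBOP, most of it Fabp2. Of the 10 intestine markers 4 were tested, with 1 called higher and 0 lower here, beside 24.6% and 11.3% of all tested genes. Cdx1, Cdx2 and Sis reached at most 0.264, 0.189 and 0.0896 FPKM in any library. Fabp2 was highest in wild type day 5 TCPOBOP replicate 3, at 118 FPKM. The other intestine markers were highest in a hCAR-TG day 5 corn oil library, where Spink4, Lypd8 and Defa24 reached 21.7, 16.4 and 14.5 FPKM. The part of the intestine markers in the Npc1l1 result was not tested.

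Soat2, which esterifies cholesterol for lipoproteins, was at 21.8, 19.4 and 22.7 FPKM under corn oil and 28.4, 39.8 and 30.5 under TCPOBOP, and its log2 change was 0.59 ± 0.11 (SE; adjusted p = 0.000262, limma). Npc1 and Npc2, the lysosomal pair that exports cholesterol taken up in lipoproteins, changed by 0.52 ± 0.11 and 0.24 ± 0.07 on the log2 scale, and Stard4, a cytosolic sterol carrier, by 0.28 ± 0.09. All 3 were called (adjusted p = 0.000573, 0.0124 and 0.0198 by limma). TCPOBOP and corn oil libraries did not overlap for any of these 4 genes.

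In wild type adults TCPOBOP raised 19 of the 28 genes and lowered 1, beside 31.4% of tested genes called higher and 15.8% called lower. The median log2 change was 0.51 over the members and 0.06 over all tested genes. Higher were 14 of 19 enzymes, Insig1, Insig2, Npc1, Stard4 and Soat2, and Scap was lower. The count depends on 1 library: without wild type day 60 corn oil replicate 2, the lowest of its group for most enzymes, 13 members were higher and 0 lower.

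Sqle was at 20.2, 13.5 and 25.4 FPKM under corn oil and 50.3, 43.7 and 40.9 under TCPOBOP, with no overlap and a log2 change of 1.19 ± 0.20 (SE; adjusted p = 6.80e-05, limma). Hmgcs1 (chromosome 13, 119690351 to 119708260), not called in pups, was at 59.4, 58.8 and 104 and 176, 126 and 143 FPKM, a log2 change of 1.03 ± 0.24 (SE; adjusted p = 0.00157, limma). Corn oil replicate 3 of Hmgcs1 lay far above the other controls and still below every treated library. The difference between the adult and the pup response of Hmgcs1 was itself called, at 1.11 ± 0.34 (SE; adjusted p = 0.0235, limma) (log2).

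Along the pathway Fdps rose by 0.80 ± 0.22, Dhcr7, the 7-dehydrocholesterol reductase, by 0.71 ± 0.15, Hsd17b7, a sterol ketoreductase, by 0.67 ± 0.18 and Mvd, the mevalonate diphosphate decarboxylase, by 0.65 ± 0.26 (log2, SE). Rescaled by the median of ratios Mvd was not called (0.57, adjusted p = 0.0786, limma). Tm7sf2 was at 67.8, 62.2 and 70.2 FPKM under corn oil and 95.7, 98.6 and 92.0 under TCPOBOP, a log2 change of 0.51 ± 0.09 (SE; adjusted p = 0.000118, limma). Its adult response was below that in pups by 0.51 ± 0.13 on the log2 scale (adjusted p = 0.00712, limma). The 5 enzymes not called were Acat2 (a cytosolic acetoacetyl-CoA thiolase, not Soat2, whose protein goes by the same abbreviation), Idi1 (isopentenyl diphosphate isomerase), Ggps1, Nsdhl (a sterol decarboxylating dehydrogenase) and Ebp. Ebp, which rose in pups, had a log2 change of -0.23 ± 0.10 (SE; adjusted p = 0.0525, limma) in adults, with every treated library below every control. Rescaled by the median of ratios it was called lower (-0.33, adjusted p = 0.00827, limma). Its response differed between the ages by -0.59 ± 0.13 (SE; adjusted p = 0.00288, limma). Acat2 has a close neighbouring paralogue, Acat3, and how the counting split shared reads is not given, so its values are uncertain.

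Insig2 was at 106, 107 and 87.3 FPKM under corn oil and 185, 189 and 213 under TCPOBOP, a log2 change of 0.96 ± 0.12 (SE; adjusted p = 1.54e-06, limma). Insig1 was at 125, 81.2 and 128 and 183, 185 and 185 FPKM, a log2 change of 0.75 ± 0.16 (SE; adjusted p = 0.000620, limma), and neither gene's groups overlapped. Srebf2 was at 10.8, 10.3 and 12.3 and 14.3, 12.5 and 11.3 FPKM and was not called (0.17 ± 0.09, adjusted p = 0.114). Scap was at 28.3, 34.6 and 36.2 and 27.5, 24.8 and 25.3 FPKM, each treated library below each control, and fell by 0.34 ± 0.11 (log2; adjusted p = 0.0170, limma). Its response also differed between the ages, by -0.51 ± 0.16 (SE; adjusted p = 0.0231, limma). Soat2 was at 11.9, 14.0 and 15.0 and 22.5, 22.2 and 19.5 FPKM, without overlap, a log2 change of 0.62 ± 0.11 (SE; adjusted p = 9.15e-05, limma). Npc1l1, at 0 in all controls, was at 0.113, 0.0649 and 0.0437 FPKM under TCPOBOP and was not called.

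In the same adult libraries genes of the cell cycle summed to 1.08 to 2.04 FPKM under corn oil and to 60.7 to 83.9 under TCPOBOP. Of these, 8 of 8 were called higher, beside 31.4% of all tested genes. The 5 hepatocyte markers summed to 40187 to 49365 and to 22358 to 25932 FPKM. The part of both lists in the rise of the sterol genes was not tested. In pups the cell cycle sums were 51.7 to 85.8 FPKM under corn oil and 78.1 to 85.3 under TCPOBOP. There 2 of 8 were called higher, close to the 24.6% of all tested genes called higher, and all 8 changes were above 0 (median log2 change 0.21). Counting groups that do not overlap, 15 members lay wholly above corn oil in adults and 3 wholly below, beside 37.7% and 22.3% of tested genes. Of the 15 members higher in pups and the 19 higher in adults, which share no library, 12 were the same (80.0% of the first and 63.2% of the second): Cyp51, Fdps, Insig1, Insig2, Msmo1, Npc1, Pmvk, Sc5d, Soat2, Sqle, Stard4 and Tm7sf2. The share of all tested genes called higher at both ages was not counted. Rescaled by the median of ratios, Msmo1 and Stard4 were not called at either age, and Npc1 not in adults (adjusted p = 0.0847, limma).

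**Figure D2:**
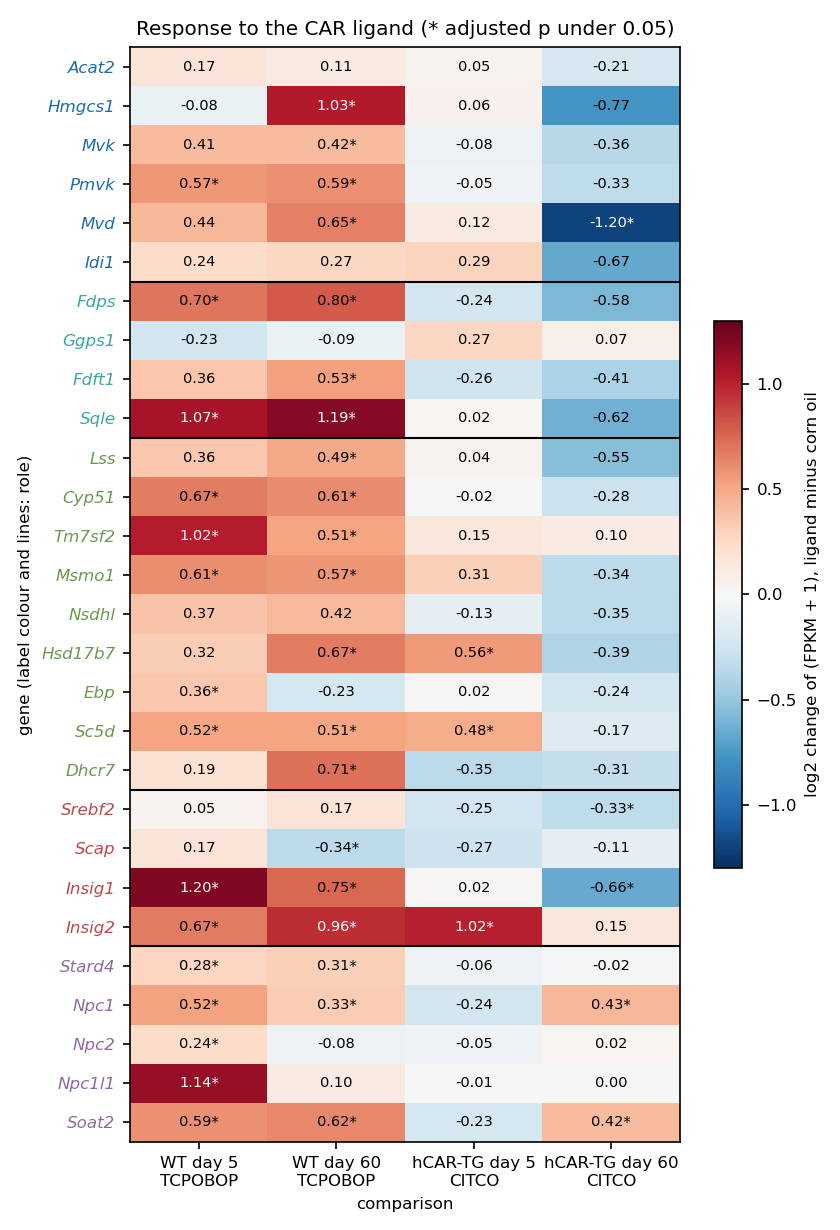
Log2 change of (FPKM + 1), ligand minus corn oil, of the 28 genes (rows, grouped by role from mevalonate steps at the top to cholesterol handling at the bottom) in the 4 ligand comparisons (columns); the value is written in each cell and * marks a limma adjusted p under 0.05. Asterisks on red cells fill most of both TCPOBOP columns (15 and 19 higher), while the CITCO columns carry 3 and 5 asterisks. The 15 include Npc1l1, which passed the filter on low values only through wild type pups given TCPOBOP, so its asterisk is not read as a test. Without it 14 of 27 were higher.

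In hCAR-TG pups CITCO raised 3 of the 28 genes, Insig2, Sc5d and Hsd17b7, and lowered 0, beside 8.27% of tested genes called higher and 8.82% called lower. The median log2 change was 0.01 over the members and 0.01 over all tested genes. The count was 5 (4 higher and 1 lower) without corn oil replicate 1 or without corn oil replicate 2, and 2 without the libraries with acinar transcripts. After rescaling by the median of ratios 2 were higher and 1, Srebf2, was lower. In the same comparison 4 of 5 endothelial markers (sums of 123 to 137 FPKM under corn oil and 94.6 to 102 under CITCO), 3 of 5 neutrophil markers (1103 to 1415 and 547 to 1061) and 3 of 4 intestine markers (69.4 to 91.0 and 53.2 to 61.4, median log2 change -2.68) were called lower. Their part in the changes of the members was not tested.

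Insig2 was at 28.6, 33.5 and 25.8 FPKM under corn oil and 60.0, 60.8 and 59.0 under CITCO, with no overlap and a log2 change of 1.02 ± 0.12 (SE; adjusted p = 1.03e-05, limma). It kept its call in all 16 alternatives. Insig1, in the same libraries, was at 24.4, 33.8 and 31.2 and 27.0, 34.4 and 28.6 FPKM, with overlap and a log2 change of 0.02 ± 0.16 (SE; adjusted p = 0.958, limma). Sc5d was at 91.3, 91.1 and 66.9 and 108, 121 and 116 FPKM, a log2 change of 0.48 ± 0.11 (SE; adjusted p = 0.00633, limma), and corn oil replicate 3 was the lowest library. Fitted on the compared libraries alone Sc5d had an adjusted p of 0.101 (limma). Hsd17b7 was at 12.9, 12.4 and 7.45 and 15.9, 17.4 and 15.1 FPKM, a log2 change of 0.56 ± 0.18 (SE; adjusted p = 0.0394, limma); its adjusted p was 0.211 without corn oil replicate 3, and its call was lost in 8 of 16 alternatives.

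The other members gave small or uneven values in hCAR-TG pups. Sqle was at 22.6, 18.3 and 17.3 FPKM under corn oil and 19.0, 21.4 and 18.5 under CITCO, overlapping, and Npc1l1 at 0.0399, 0.0635 and 0.0497 and 0.0495, 0.0347 and 0.0542. The CITCO libraries lay wholly below corn oil for 6 members that were not called, Fdft1 (squalene synthase), Dhcr7, Srebf2, Scap, Npc1 and Soat2, beside 17.3% of tested genes wholly below and 17.7% wholly above. The lowest of their limma adjusted p-values was 0.0543, for Srebf2 (-0.25 ± 0.09, log2). Corn oil replicate 3 was the lowest of its group for 14 of the 19 enzymes.

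In hCAR-TG adults CITCO lowered 3 of the 28 genes, Mvd, Insig1 and Srebf2, and raised 2, Npc1 and Soat2, beside 3.97% of tested genes called lower and 4.40% called higher. The median log2 change was -0.32 over the members and near 0 over all tested genes, and 7 members had a change above 0. The count rests on single libraries: 1 member was called without CITCO replicate 1, 2 without corn oil replicate 1, and 3 without corn oil replicate 2 or without CITCO replicate 3. With the number closing the read file name, whose meaning the labels do not give, as a factor, 1 was called. Of 5 markers each, 2 of hepatocytes and 2 of stellate cells were called lower here. Of the 5 hepatocyte markers, 3 had a log2 change above 0, with a median of 0.07 over the 5. The hepatocyte sums, 44678 to 51737 FPKM under corn oil and 40166 to 45726 under CITCO, overlapped. The part of these markers in the changes of the members was not tested.

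Mvd (chromosome 8, 122433596 to 122443422) was at 13.2, 12.1 and 8.86 FPKM under corn oil and 3.60, 5.23 and 4.30 under CITCO. No CITCO library reached the lowest control, and Mvd fell by 1.20 ± 0.26 on the log2 scale (adjusted p = 0.00548, limma). The call was kept without each library in turn and lost with the read file number as a factor (adjusted p = 0.0664). Hmgcs1, at 102, 104 and 82.5 FPKM under corn oil and 47.7, 66.0 and 54.8 under CITCO, also did not overlap, with a log2 change of -0.77 ± 0.24 (SE; adjusted p = 0.0558, limma), and was not called. Lss (-0.55 ± 0.18), Sqle (-0.62 ± 0.20), Idi1 (-0.67 ± 0.27) and Fdps (-0.58 ± 0.22, log2, SE) were likewise wholly below corn oil without passing the test. Altogether 14 members, 11 of them enzymes, lay wholly below and 2 wholly above, beside 16.1% and 15.9% of tested genes.

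Insig1 was at 135, 171 and 142 FPKM under corn oil and 85.2, 86.3 and 112 under CITCO, and fell by 0.66 ± 0.16 on the log2 scale (adjusted p = 0.0123, limma). Insig2 was at 169, 137 and 170.0 and 157, 188 and 182 FPKM, overlapping and not called (0.15 ± 0.12, adjusted p = 0.575). Srebf2 was at 12.7, 13.1 and 11.1 and 9.59, 10.1 and 9.15 FPKM, all CITCO libraries below all controls, and fell by 0.33 ± 0.09 (log2; adjusted p = 0.0223, limma). Scap was at 30.4, 31.8 and 32.2 and 29.7, 30.0 and 27.5 FPKM, not overlapping and not called. Npc1 rose, from 14.9, 19.4 and 19.2 to 26.0, 24.01 and 22.7 FPKM (0.43 ± 0.11, adjusted p = 0.0127), and so did Soat2, from 13.3, 14.4 and 13.9 to 20.3, 17.8 and 18.4 FPKM (0.42 ± 0.11, adjusted p = 0.0222). The calls of Insig1, Npc1 and Soat2 were lost in 4, 3 and 4 of 15 alternatives. Npc1l1 was at 0.0127, 0 and 0 and 0.00574, 0.00600 and 0.00528 FPKM, near 0 in both.

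**Figure D3:**
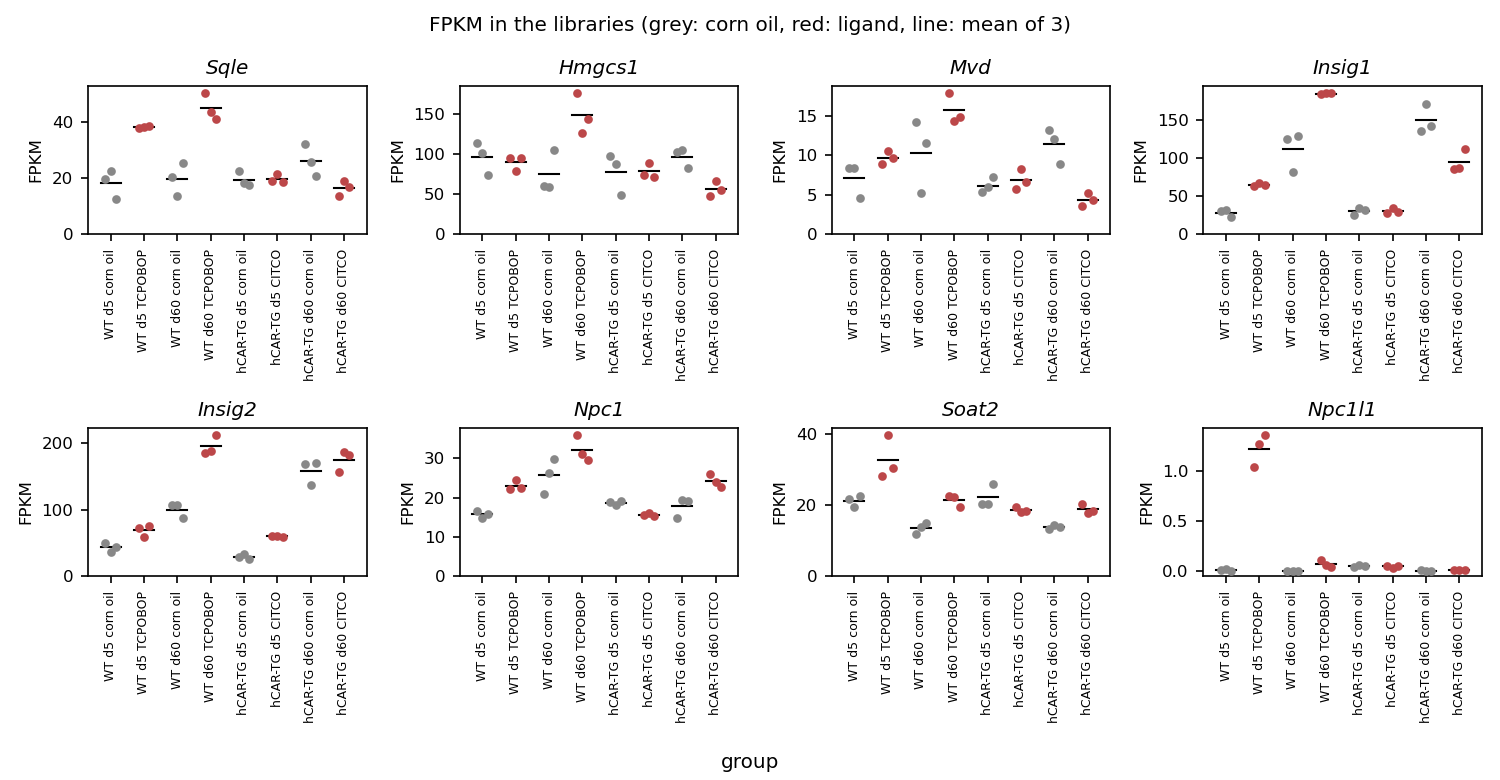
FPKM (vertical axes) of 8 members in the 24 libraries by group (horizontal axes); grey points are corn oil libraries, red points ligand libraries and lines the means of 3. Npc1l1 stands above 1 FPKM only in wild type pups given TCPOBOP, and Mvd has its lowest group mean in hCAR-TG adults given CITCO (libraries at 3.60 to 5.23 FPKM).

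The responses to the 2 receptor and ligand pairs were compared directly, as the CITCO response minus the TCPOBOP response at one age. At day 60 they differed for 19 of 28 genes, all lower with CITCO, beside 9.77% of tested genes called higher and 24.1% called lower. The median difference was -0.79 over the members and -0.07 over all tested genes. By role these were 5 of 6 mevalonate enzymes, 3 of 4 prenyl and squalene enzymes, 8 of 9 sterol enzymes, 3 of 4 control genes and 0 of 5 handling genes; 1 of the 5 handling genes had an unadjusted p under 0.05. Rescaled by the median of ratios, 15 were called, all lower: 4 of 6 mevalonate, 3 of 4 prenyl and squalene and 5 of 9 sterol enzymes, 3 of 4 control genes and 0 of the 4 handling genes tested; Acat2, Tm7sf2, Msmo1 and Nsdhl were no longer called.

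The 4 with the lowest adjusted p were Sqle (-1.81 ± 0.29, adjusted p = 6.31e-05), Insig1 (-1.41 ± 0.23, 6.57e-05), Hmgcs1 (-1.80 ± 0.34, 0.000408) and Mvd (-1.85 ± 0.36, 0.000542), on the log2 scale with SE and limma adjusted p. In all 4, TCPOBOP raised the gene in wild type adults, and in hCAR-TG adults the CITCO libraries lay wholly below corn oil. The rise of Mvd in wild type adults was not called after rescaling by the median of ratios (0.57, adjusted p = 0.0786, limma). Insig2 differed by -0.81 ± 0.17 (SE; adjusted p = 0.00104, limma), with a rise in wild type adults and overlapping groups in hCAR-TG adults. Soat2 and Npc1 were called higher with both ligands, and their differences, -0.20 ± 0.16 (SE; adjusted p = 0.355, limma) and 0.10 ± 0.15 (SE; adjusted p = 0.654, limma), were not called. After rescaling Npc1 was not called with TCPOBOP (adjusted p = 0.0847, limma).

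At day 5 the 2 responses differed for 13 members, 12 lower with CITCO and 1, Ggps1, higher, beside 22.2% and 11.5% of tested genes. The median difference was -0.39 over the members and -0.05 over all tested genes. Without Npc1l1, whose difference was -1.14 ± 0.07 (SE), they were 12 of 27, 11 of them lower. Tm7sf2 (-0.87 ± 0.13, adjusted p = 5.66e-05), Soat2 (-0.82 ± 0.16, adjusted p = 0.000543) and Insig1 (-1.18 ± 0.23, adjusted p = 0.000611) had the lowest adjusted p of those 27 (limma). The 12 lower with CITCO included all 5 handling genes. Rescaled by the median of ratios, 8 were lower and 1 higher, with Npc1 and Soat2 the 2 handling genes of 4 tested that were called. Insig2 was not among them: it rose in both, and the difference was 0.34 ± 0.17 (SE; adjusted p = 0.133, limma). The count was 8 without wild type TCPOBOP replicate 2 or without hCAR-TG CITCO replicate 3, and 7 (all lower) without the 3 libraries with acinar transcripts.

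**Figure D4:**
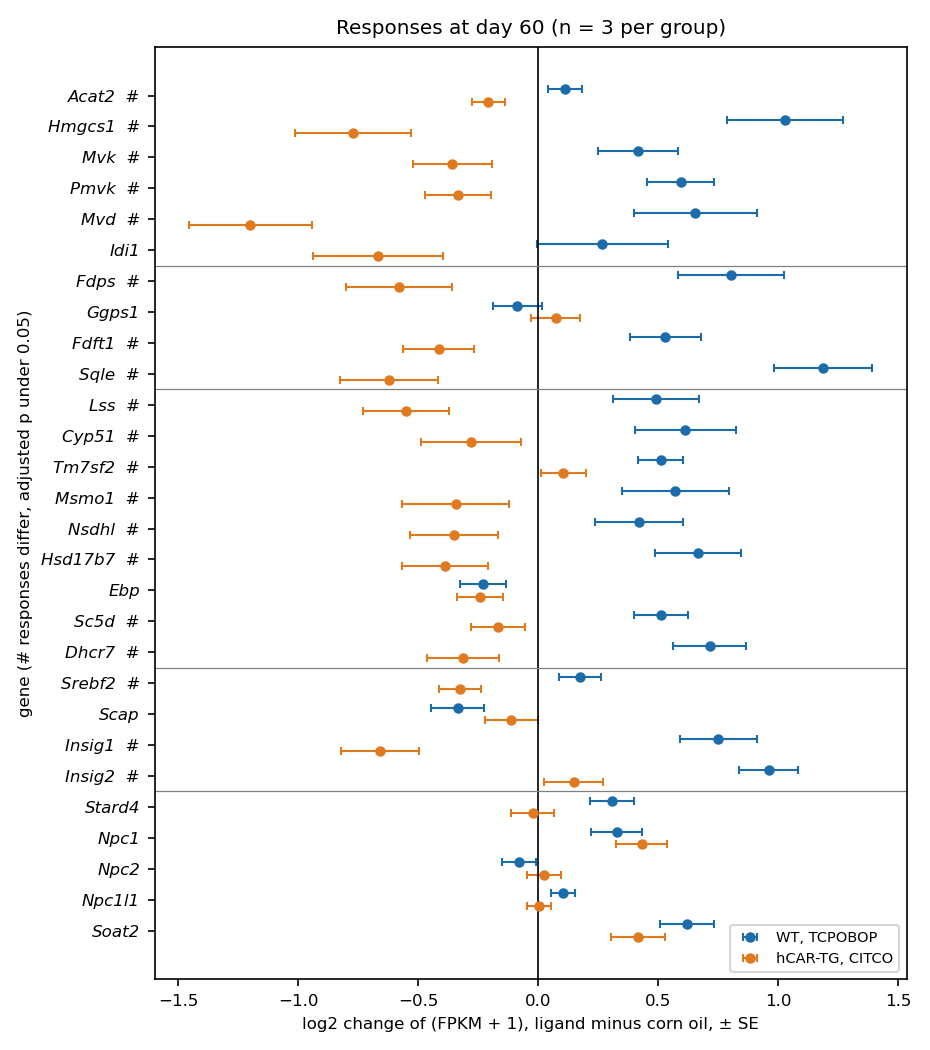
Log2 change of (FPKM + 1) with SE, ligand minus corn oil, at day 60 (horizontal axis) for each of the 28 genes (vertical axis) in wild type mice given TCPOBOP (blue) and hCAR-TG mice given CITCO (orange), 3 libraries per group; # marks genes whose 2 responses differed at a limma adjusted p under 0.05. The marks fall on 16 of the 19 enzymes and 3 of the 4 control genes, and on 0 of the 5 handling genes at the bottom.

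The response also differed with age within a genotype. In wild type mice 6 members differed between day 60 and day 5 (1 higher at day 60, 5 lower), beside 13.7% and 9.76% of tested genes: Hmgcs1 was higher, and Ebp, Tm7sf2, Scap, Npc2 (-0.32 ± 0.10, adjusted p = 0.0259) and Npc1l1 were lower. Npc1l1 differed by -1.03 ± 0.07 (SE), and without it 5 of 27 were called. The count was 3 without wild type day 5 corn oil replicate 2, without wild type day 5 TCPOBOP replicate 2, and without the libraries with acinar transcripts. In hCAR-TG mice 6 also differed (2 higher, 4 lower), beside 5.37% and 4.62%. Npc1 (0.67 ± 0.15, adjusted p = 0.00729) and Soat2 (0.65 ± 0.16, adjusted p = 0.0122) responded higher at day 60. Insig2 (-0.87 ± 0.17, adjusted p = 0.00343), Sc5d (-0.65 ± 0.16, adjusted p = 0.0130), Hsd17b7 (-0.95 ± 0.25, adjusted p = 0.0221) and Mvd (-1.32 ± 0.36, adjusted p = 0.0264) responded lower. None of the 3 members that CITCO raised in pups was among the 2 it raised in adults, 0 of 3 and 0 of 2. With so few members called this says little about age. The share of all tested genes called higher at both ages was not counted.

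Under corn oil at day 5, 1 member was called, Insig2, lower in hCAR-TG by 0.54 ± 0.12 (log2; adjusted p = 0.00645, limma), beside 2.27% of tested genes called lower and 8.29% called higher. Its libraries were at 49.4, 36.1 and 43.9 FPKM in wild type and 28.6, 33.5 and 25.8 in hCAR-TG pups, without overlap. The count was 0 without wild type corn oil replicate 1 (Insig2 adjusted p = 0.0520) and 2 without hCAR-TG corn oil replicate 2 or without replicate 3. Between the same libraries 5 of 5 neutrophil and 5 of 5 erythroid markers were called higher in hCAR-TG pups (median log2 differences 1.51 and 1.20), 2 of 4 intestine markers were higher and 3 of 4 lymphocyte markers lower. The neutrophil sums were 295 to 763 FPKM in wild type and 1103 to 1415 in hCAR-TG pups. What part these markers have in the Insig2 difference was not tested.

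Under corn oil at day 60, 5 members were higher in hCAR-TG, Insig2, Pmvk, Sc5d, Acat2 and Dhcr7, and Npc1 was lower, beside 3.05% and 1.85% of tested genes. The median difference was 0.23 over the members and near 0 over all tested genes. Insig2 was at 106, 107 and 87.3 FPKM in wild type and 169, 137 and 170.0 in hCAR-TG adults (0.66 ± 0.12, adjusted p = 0.00236), and Pmvk at 23.8, 18.2 and 30.2 and 43.2, 37.1 and 34.6 (0.67 ± 0.14, adjusted p = 0.00522). Npc1 was at 20.8, 26.3 and 29.8 FPKM in wild type and 14.9, 19.4 and 19.2 in hCAR-TG adults (-0.50 ± 0.11, adjusted p = 0.00656). The 3 genes' groups did not overlap. The count of 6 fell to 3 without wild type corn oil replicate 2, to 2 without hCAR-TG corn oil replicate 1, to 1 in a fit of the compared libraries alone and to 0 with the read file number as a factor.

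The comparison of the adult corn oil groups and that of CITCO with corn oil in adults share the 3 hCAR-TG corn oil libraries, so their values are given side by side only. Npc1 was at a mean of 25.6 FPKM in wild type adults under corn oil, 17.8 in hCAR-TG adults under corn oil and 24.2 under CITCO. Dhcr7 was at 26, 38.2 and 30.6 FPKM, and Sqle at 19.7, 26.1 and 16.5. Dhcr7 was not called with CITCO, and Sqle was called in neither comparison. For Insig2 the order was different, with 100.2, 159 and 175 FPKM. Tm7sf2, at 66.7, 80.3 and 86.8, and Soat2, at 13.6, 13.8 and 18.8 FPKM, also had their highest mean under CITCO. These genes are examples, and the members with each order were not counted.

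With age, under corn oil, 12 members were higher and 3 lower at day 60 than at day 5 in wild type mice, beside 25.2% and 44.9% of tested genes, and 15 were higher and 3 lower in hCAR-TG mice, beside 24.3% and 47.3%. The median log2 changes were 0.29 and 0.49 over the members and -0.14 and -0.17 over all tested genes. Rescaling by the median of ratios moved those of all genes to 0.06 and 0.06, and then 16 members were higher and 3 lower in wild type, and 20 higher and 2 lower in hCAR-TG mice. The genotypes share no library here: 11 members were higher in both (91.7% of 12 and 73.3% of 15), and Npc2, Soat2 and Srebf2 were lower in both. The shares of all tested genes called in both genotypes were not counted.

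Insig1 was at 29.9, 30.9 and 22.6 FPKM in wild type pups and 125, 81.2 and 128 in adults, a log2 change of 1.95 ± 0.16 (SE; adjusted p = 1.23e-09, limma), and in hCAR-TG mice at 24.4, 33.8 and 31.2 and 135, 171 and 142 (2.29 ± 0.16, adjusted p = 8.25e-11). Insig2 changed by 1.20 ± 0.12 (SE; adjusted p = 2.46e-08, limma) in wild type and by 2.40 ± 0.12 (SE; adjusted p = 4.20e-13, limma) in hCAR-TG mice. Of the enzymes, Ebp was at 39.6, 46.9 and 49.9 FPKM in wild type pups and 91.2, 94.6 and 95.6 in adults (1.04 ± 0.10, adjusted p = 4.77e-09), with no overlap. Sc5d (0.67 ± 0.11 and 1.33 ± 0.11), Tm7sf2 (0.64 ± 0.09 and 1.03 ± 0.09), Fdps (0.97 ± 0.22 and 1.49 ± 0.22) and Acat2 (0.41 ± 0.07 and 0.81 ± 0.07) rose in both genotypes, as log2 changes with SE in wild type and hCAR-TG mice. No enzyme was called lower with age in either genotype.

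The other direction was taken by the gene of the transcription factor itself. Srebf2 was at 16.7, 15.7 and 13.5 FPKM in wild type pups and 10.8, 10.3 and 12.3 in adults, without overlap, and fell by 0.42 ± 0.09 on the log2 scale (adjusted p = 0.000204, limma); in hCAR-TG mice it fell by 0.37 ± 0.09, a call that was lost on rescaling. Soat2 was at 21.8, 19.4 and 22.7 FPKM in wild type pups and 11.9, 14.0 and 15.0 in adults and fell by 0.61 ± 0.11, and Npc2 fell by 0.47 ± 0.07 (log2). Npc1 rose with age in wild type mice (0.66 ± 0.11, adjusted p = 1.28e-05) and was not called in hCAR-TG mice (-0.07 ± 0.11, adjusted p = 0.538). Markers of blood-forming and other cells moved with age too: those of neutrophils summed to 295 to 763 FPKM in wild type pups and 5.28 to 7.03 in adults, those of Kupffer cells to 301 to 328 and 138 to 158, and the 5 hepatocyte markers to 68861 to 70414 and 40187 to 49365. Of those 5 hepatocyte markers 1 was called higher and 2 lower, with a median log2 change of 0.14, beside 25.2% and 44.9% of all tested genes. The part of all these markers in the changes with age was not tested. With the read file number as a factor, 9 members (6 higher and 3 lower) were called in wild type mice.

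**Figure D5:**
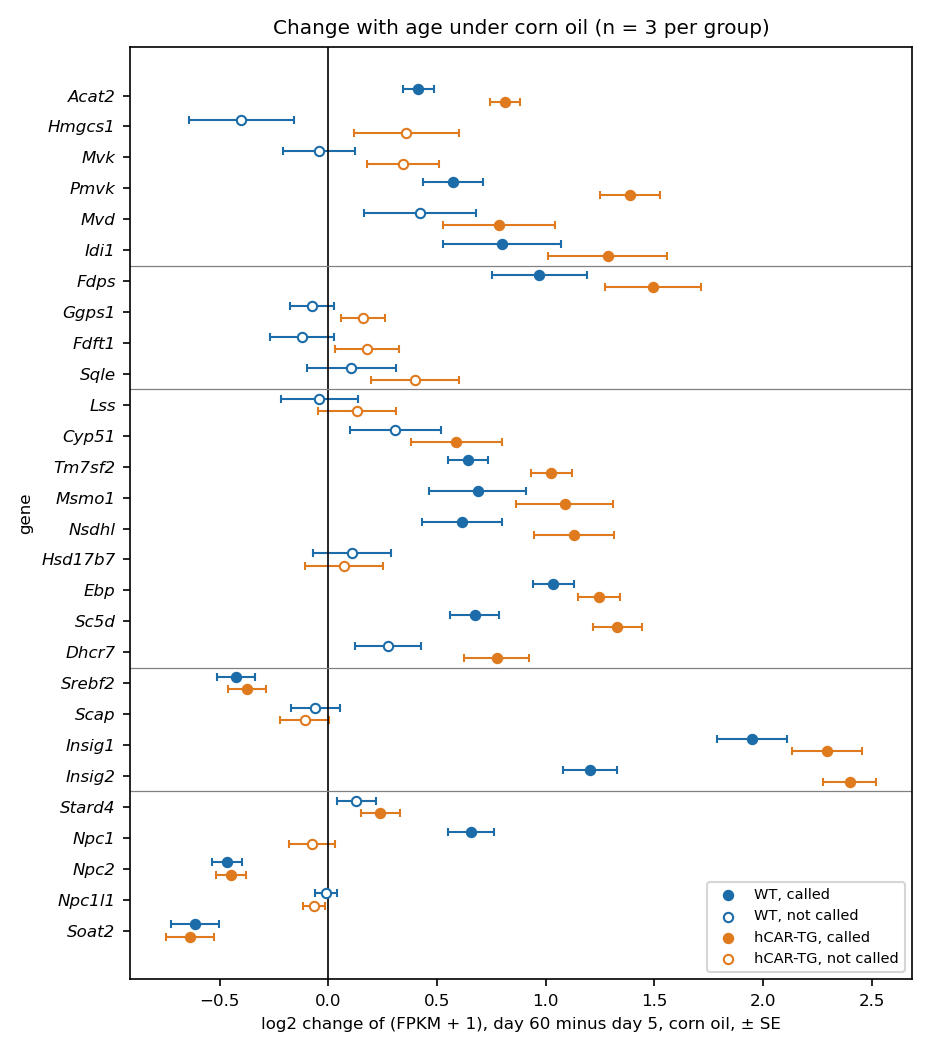
Log2 change of (FPKM + 1) with SE, day 60 minus day 5 under corn oil (horizontal axis), for each of the 28 genes (vertical axis) in wild type (blue) and hCAR-TG mice (orange), 3 libraries per group; filled points have a limma adjusted p under 0.05. Insig1 and Insig2 lie farthest to the right, and Srebf2, Npc2 and Soat2 lie left of 0 in both genotypes.

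The genes that process SREBPs and sense sterols, a list of 11 that holds no member, gave 5 higher and 0 lower with TCPOBOP in wild type pups and 6 higher and 0 lower in adults (median log2 changes 0.13 and 0.22), beside 24.6% and 31.4% of all tested genes called higher. With CITCO it gave 2 higher and 2 lower in hCAR-TG pups, beside 8.27% and 8.82% of tested genes, and 0 called in adults by limma, where 2 had an unadjusted p under 0.05. Tmem97, which binds sterols and the lysosomal Npc1 protein, rose by 1.02 ± 0.09 and 1.20 ± 0.09 with TCPOBOP and had log2 changes of 0.08 ± 0.09 and 0.07 ± 0.09 with CITCO, in pups and adults (SE). Rnf145, a ubiquitin ligase of the sterol sensing machinery, rose by 0.28 ± 0.08 and 0.95 ± 0.08 with TCPOBOP and had log2 changes of 0.06 ± 0.08 and -0.01 ± 0.08 with CITCO. All 4 TCPOBOP values of Tmem97 and Rnf145 were called, and 0 of their 4 CITCO values (limma).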

How the data were processed

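RNA from flash-frozen liver was made into TruSeq stranded mRNA libraries, per the labels' protocols. Coordinates are on mm10, the build named in the submitters' processing notes; the aligner, the quantification software and the gene models are each not given in the sources used here. Deposited values are FPKM per gene, made by the authors, with the bounds of an interval per the file headers; 279 symbols at several loci were summed and 5 genes with a failed estimate left out.

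Of all genes, those reaching 1 FPKM in 3 or more libraries were fitted on log2(FPKM + 1), pseudocount 1, with all 8 groups in the model and 16 residual degrees of freedom (limma 3.58.1 in R 4.3.3, eBayes with trend and robust). Tests were two-sided, with Benjamini-Hochberg adjustment over all 12282 tested genes, in 12 comparisons. The pseudocount shrinks changes of genes near 1 FPKM. On simulated data, 73.0% to 80.0% of log2 changes of 0.5 were recovered in the ligand comparisons and 4.47% to 6.25% of calls were false. The simulation changed 100 genes at each size, drawn from the more highly expressed ones, with noise independent between genes. Libraries here shifted many enzymes at once, so these rates may not hold for the members. Promoter matches were counted with Python 3.11.15.

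The members and lists were chosen with earlier results of these data known. Any member may be named; in each comparison of 2 groups the 4 called members with the lowest adjusted p were followed through the alternatives. These were another scaling, pseudocount, filter or prior, array weights, a replicate block, the read file number as a factor, the compared libraries alone, and leaving out each library. Leaving out the 3 libraries with acinar transcripts was chosen after seeing the data. Replicate numbers did not pair the samples.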

Additional observations from a re-analysis of the deposited data

Results flagged for a closer look

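Responses that differed between ages or between receptor and ligand pairs, by the test of the difference itself (limma, adjusted over all tested genes), are gathered here with their values.

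Between day 60 and day 5 in wild type mice 6 members differed in their response to TCPOBOP. Npc1l1, which passed the filter on low values only through pups given TCPOBOP, where it was high, differed by -1.03 (SE 0.07), given as a description. Of the others the 3 with the lowest adjusted p were Ebp (-0.59, SE 0.13, adjusted p = 0.00288), Tm7sf2 (-0.51, SE 0.13, 0.00712) and Scap (-0.51, SE 0.16, 0.0231), all lower at day 60 on the log2 scale. Ebp rose in pups, whereas in adults its treated libraries lay wholly below corn oil without passing the test, which it passed after rescaling by the median of ratios (-0.33, adjusted p = 0.00827).

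In hCAR-TG mice 6 members differed between the ages in their response to CITCO. Insig2 (-0.87, SE 0.17, adjusted p = 0.00343) and Sc5d (-0.65, SE 0.16, 0.0130) responded lower at day 60, and Npc1 (0.67, SE 0.15, 0.00729) and Soat2 (0.65, SE 0.16, 0.0122) responded higher.

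Between the pairs at day 5, 13 members differed. Npc1l1, with the same limit, differed by -1.14 (SE 0.07). Of the others the lowest adjusted p were those of Tm7sf2 (-0.87, SE 0.13, adjusted p = 5.66e-05), Soat2 (-0.82, SE 0.16, 0.000543) and Insig1 (-1.18, SE 0.23, 0.000611), each lower with CITCO. At day 60, 19 members differed, led by Sqle (-1.81, SE 0.29, 6.31e-05), Insig1 (-1.41, SE 0.23, 6.57e-05), Hmgcs1 (-1.80, SE 0.34, 0.000408) and Mvd (-1.85, SE 0.36, 0.000542). Receptor, ligand and genotype cannot be told apart in these differences.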

How the results depend on the processing

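Absolute depth is unknown, and with 3 libraries a group single libraries weigh on the counts. Over the alternatives 0 followed members changed sign. Calls were lost in 21 of 180 settings that left out libraries and in 15 of 241 others. The followed members were picked for the lowest adjusted p, so these totals do not speak for the other members. They include Npc1l1 in wild type pups, which passed the filter only through its treated group, with 0 calls lost in 13 alternatives. Counts of called members moved by over 1.5 times in 18 of 103 and 12 of 103; the cause was not tested. In a fit of the compared libraries alone the count was 1 for CITCO at day 5 (3 as reported), 9 for CITCO at day 60 (5), 0 and 1 for the corn oil genotypes at day 5 and day 60 (1 and 6). Array weights gave 8, 10 and 4 for CITCO at day 5, CITCO at day 60 and the corn oil genotypes at day 5, and 11 for the age difference of the CITCO response (6). The read file number as a factor could be fitted for 7 of 12 comparisons. It gave 8 (4 higher and 4 lower) and 1 for CITCO at day 5 and day 60, 0 for the adult corn oil genotypes and 9 for wild type age. It could not be fitted for TCPOBOP at day 5, the corn oil genotypes at day 5 or age in hCAR-TG. Nor could it be fitted for the wild type age difference of the response or the pair difference at day 5. Those results were therefore not checked against this number. Without the 3 libraries with acinar transcripts the wild type age difference of the response gave 3 and the pair difference at day 5 gave 7. Leaving out each library in turn gave 11 to 15 and 13 to 22 for TCPOBOP at day 5 and day 60, 2 to 5 and 1 to 5 for CITCO, 0 to 2 and 2 to 7 for the corn oil genotypes, 12 to 18 and 17 to 20 for age in wild type and hCAR-TG, 3 to 6 and 4 to 7 for the age differences of the responses, and 8 to 14 and 14 to 21 for the pair differences at day 5 and day 60. Same-numbered libraries did not deviate together (r from -0.18 to 0.26, across genes); with the replicate block the counts were 15 and 19 for TCPOBOP at day 5 and day 60, 4 and 5 for CITCO, and 12 and 19 for the pair differences, and those of the other 6 comparisons were as reported. Median-of-ratios scaling gave 12 (11 higher, 1 lower) and 15 (13 higher, 2 lower) for TCPOBOP at day 5 and day 60, and 9 and 15 for the pair differences.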

Other observations

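Neighbouring lipid pathways did not all follow the sterol genes. Of 6 targets of LXR, the receptor that senses oxysterols and drives cholesterol export, TCPOBOP lowered 4 and raised 0 in wild type pups, and lowered 3 and raised 1 in adults (median log2 changes -0.41 and -0.39), beside 24.6% higher and 11.3% lower of all tested genes in pups and 31.4% and 15.8% in adults. Abcg5 and Abcg8, the paired transporters that secrete cholesterol into bile, fell by 0.44 ± 0.14 and 0.83 ± 0.16 in pups and by 0.80 ± 0.14 and 0.67 ± 0.16 in adults (log2, SE). With CITCO in hCAR-TG adults both rose, by 0.46 ± 0.14 and 0.55 ± 0.16 (adjusted p = 0.0390 and 0.0327, limma).

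The lipogenesis list held 8 genes linked to fatty acid synthesis: Srebf1, Acly, Acaca, Fasn, Scd1, Elovl6, Me1 and Pnpla3. TCPOBOP raised 6 and lowered 0 in wild type adults (31.4% of all tested genes higher, median log2 change 1.34 over the list). There Elovl6, a fatty acid elongase, rose by 2.62 ± 0.20 and Fasn, fatty acid synthase, by 1.81 ± 0.26. In wild type pups 2 rose and 2 fell, beside 24.6% of all tested genes higher and 11.3% lower. In hCAR-TG pups CITCO raised 1 and lowered 2, beside 8.27% and 8.82%. In hCAR-TG adults CITCO lowered 6 and raised 0 (3.97% of all tested genes lower, median -0.77 over the list), among them Scd1, the stearoyl-CoA desaturase, by 1.60 ± 0.21 and Srebf1, the gene of the fatty acid SREBP, by 1.09 ± 0.20 (log2, SE). Summed over the 8 genes the hCAR-TG adult libraries held 987 to 1633 FPKM under corn oil and 440 to 540 under CITCO, and the wild type adult libraries 557 to 822 and 735 to 1098.

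The prenyl branches lead from mevalonate to dolichol, ubiquinone and prenylated proteins. Of 10 genes of these branches 4 were higher and 2 lower with TCPOBOP at either age (median log2 changes 0.12 and 0.08). Of all tested genes 24.6% were higher and 11.3% lower at day 5, and 31.4% and 15.8% at day 60. With CITCO 2 were higher and 1 lower at day 5, beside 8.27% and 8.82% of tested genes. At day 60 CITCO gave 0 higher and 1 lower, beside 4.40% and 3.97%.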
